A study of Rattus norvegicus with 10 samples.

Results

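Wdr19 and 9 further genes of intraflagellar transport were examined in testes of postnatal day 6 rat pups. The retrograde set comprised Wdr19, Wdr35, Ift122, Ift140 and Ttc21b, and the anterograde set comprised Ift88, Ift172, Ift80, Ift57 and Kif3a. Wdr19 was chosen because its measured signal differed between the study's groups, and the others were added as genes of the same machinery. Members were found through the RefSeq transcript given for each non-control probe of the array. This gave 9 probes for 8 of the 10 genes, out of 21892 probes for 11561 named genes tested over the whole array. Ift122 and Ift140 had no matching probe and were not analysed here, so the retrograde set rests on 3 of 5 genes and the anterograde set on 5 of 5. All 9 probes were well above background on 10 of 10 arrays.

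The study asked how exposure of the father to drugs affects gene expression in testes of his offspring. Male rats received either saline or BEP over 9 weeks and then recovered for another 9 weeks, and testes of their pups were taken on postnatal day 6. BEP is the usual abbreviation of the chemotherapy combination of bleomycin, etoposide and cisplatin, although the labels do not spell it out. The pups were crosses of a Brown Norway male with a Sprague Dawley female, so both groups shared this hybrid background, and no pup was itself described as treated. Each of the 10 one-colour Agilent arrays carried testis RNA of the offspring of 1 sire, 5 with a C in the sire's code and 5 with a T. The labels do not spell out these letters. C is read here as saline and T as BEP, but the values below are given by letter. How many pups each array represents is not stated, and p-values measure only the spread between these samples.

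Intraflagellar transport carries building blocks and signalling proteins along the microtubule core of the cilium. Kinesin-2 motors, which contain Kif3a, drive IFT-B trains towards the tip, and the dynein-2 motor with the IFT-A complex returns them to the base. Wdr19 (also called Ift144), Ift122 and Ift140 are core subunits of IFT-A, while Wdr35 (Ift121) and Ttc21b (Ift139) are its peripheral subunits. Ift88 belongs to the IFT-B core, and Ift172, Ift80 and Ift57 are peripheral IFT-B subunits. In the postnatal testis, somatic cells carry primary cilia, through which hedgehog signals are read, and the sperm tail that is built later also needs this transport.

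RFX transcription factors bind the X-box of ciliary gene promoters, a part of which reads GTTGCC on one strand and GGCAAC on the other. RefSeq promoter windows of the GRCr8 assembly, from 250 bases before to 50 bases after a gene's start, were available for 8 of the 10 members, with none for Ift80 and Ift57. A match to these letters on either strand lay in the windows of 4 members, namely Wdr19 and Wdr35 of the retrograde set and Ift88 and Kif3a of the anterograde set. The stretches around the matches are shown because they are a sequence feature that members of both directions have and that the choice of members did not use. Each is written 5′ to 3′ on the gene's own strand, with the matching letters in capitals.
Wdr19: tccaagatcgggGTTGCCgctgga
Wdr35: tgggcggcgctgGTTGCCaggcgacgggag
Ift88: ggagccgcacctGGCAACggctgggcgtcc
Kif3a, distal: aatatttgggacGTTGCCagcgccaggagc
Kif3a, proximal: caccccgtaggcGTTGCCccagtctggcgt

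The Wdr19 stretch lies at chr14:43459890-43459913 on the minus strand, and its match begins 38 bases after the start of the gene. That of Wdr35 lies at chr6:37490549-37490578 on the plus strand, with the match 10 bases before the start. For Ift88 the stretch is chr15:35688941-35688970 on the plus strand, and the match begins 34 bases before the start and reads on the opposite strand. The Kif3a stretches are chr10:38226525-38226554 and chr10:38226630-38226659 on the plus strand, with matches 233 and 128 bases before the start. Of all 33469 windows of this length, 4087 (12.2%) held the letters on either strand, and 395 (1.18%) held them 2 or more times. Among 56 genes of 4 other lists of ciliary genes that had a window, 28 held them. A match of 6 letters covers only part of an X-box, describes the sequence and does not show that a factor binds there.

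Wdr19, a core subunit of IFT-A, was lower in all T arrays than in all C arrays. It was measured by 1 spot per array. Levels are given as log2 of the background-subtracted signal minus the 75th percentile of the same array, so that they can be compared between arrays for 1 probe but not between probes. Wdr19 stood at -4.75, -4.98, -5.16, -4.30 and -4.96 in C replicates 1 to 5. In T replicates 1 to 5 it stood at -5.29, -5.55, -5.87, -5.76 and -5.61. The groups did not overlap, with C replicate 4 highest and T replicate 3 lowest, and the gap between the lowest C array and the highest T array was small beside the spread within the groups. The group means were -4.83 ± 0.33 (SD, n = 5) in C and -5.62 ± 0.22 (SD, n = 5) in T. The difference, T minus C, was -0.79 ± 0.16 (SE) on the log2 scale, a 1.73-fold higher level in C.

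Because Wdr19 was selected on this difference, it is given as a description without a test. Over all probes measured on every array, 9 of 21870 (0.0412%) differed by at least 1.5-fold in either direction with no overlap between the groups, and Wdr19 is 1 of them. All T arrays lay below all C arrays at 116 probes (0.53%). No other member probe separated the groups. With limma and Benjamini-Hochberg adjustment over all probes, 0 of 21892 (0%) passed 0.05, and the smallest adjusted p was 0.9985. An unadjusted p under 0.05 was found for 869 of these 21892 probes, a share that is itself below 0.05. The nearest member below the 1.5-fold mark was Ift57, with a difference of -0.11 and overlapping groups.

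**Figure D1:**
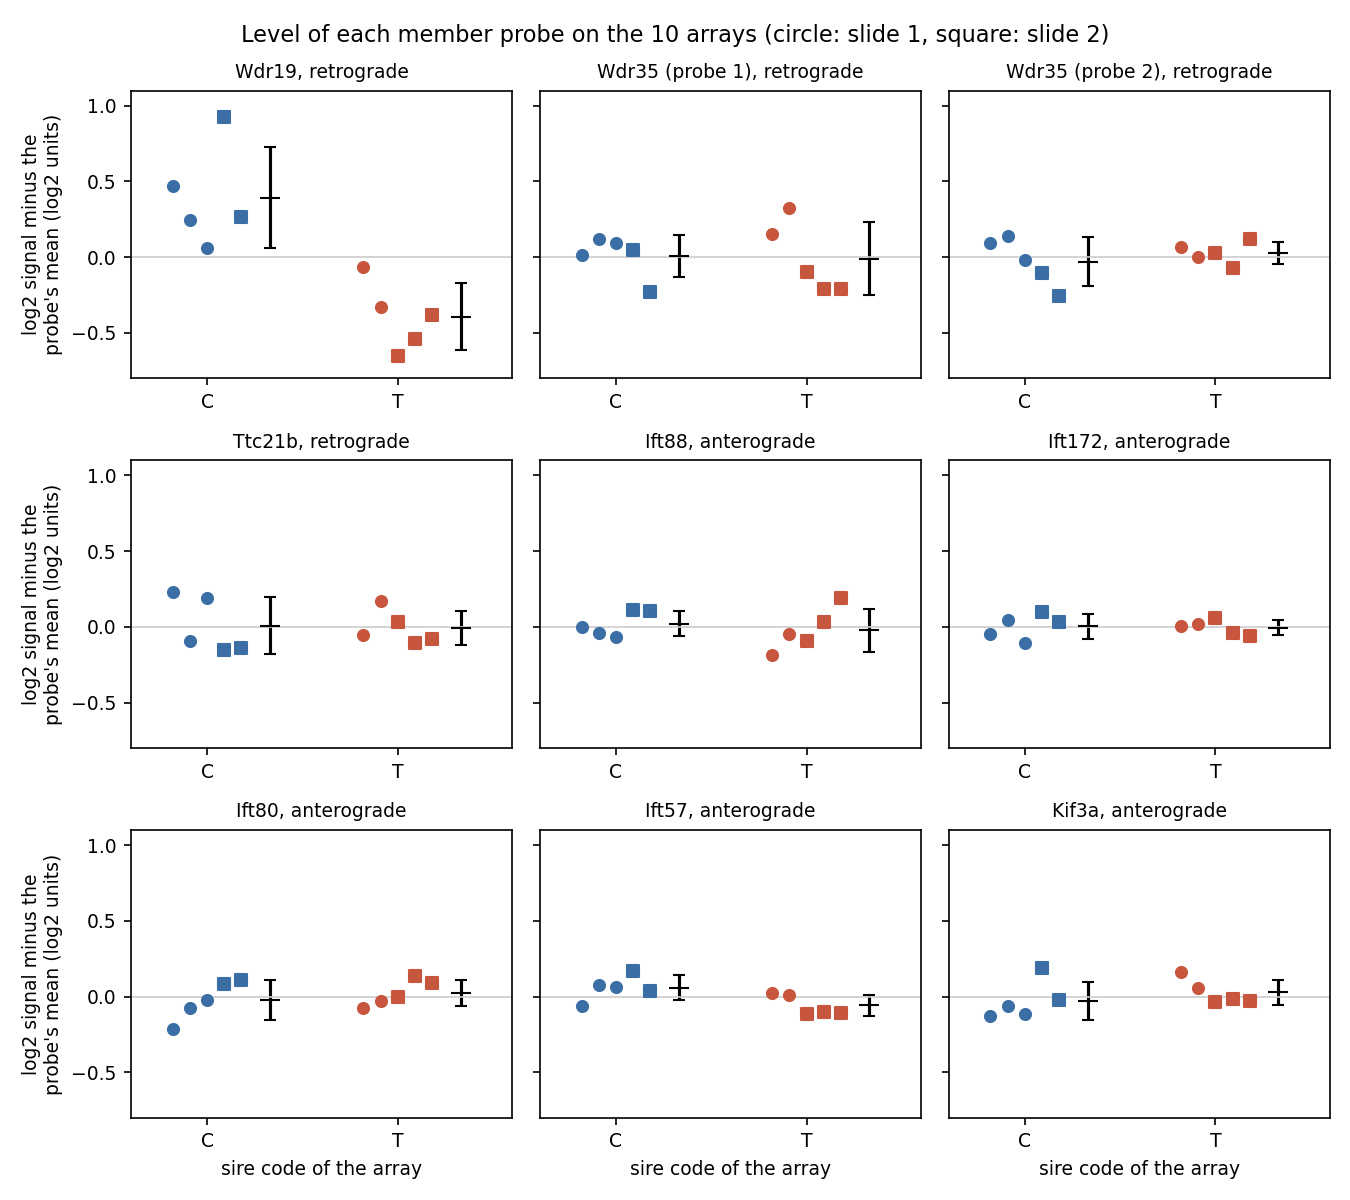
Level of each member probe on the 10 arrays, as log2 signal relative to the array's 75th percentile and minus the probe's mean over all arrays, in log2 units. Blue points are C and red points are T arrays, circles are slide 1 and squares slide 2, and the black bars give the mean ± SD of each group. Wdr19 is the probe whose groups stand apart, at 0.79 log2 units between the means, while the groups of the other 8 probes overlap.

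The unscaled signal shows how little light the Wdr19 values rest on. Before scaling, the background-subtracted signal of its spot was 56.5, 74.3, 74.97, 99.6 and 79.9 scanner units in C replicates 1 to 5. It was 48.6, 44.6, 37.0, 46.7 and 50.7 in T replicates 1 to 5. The C arrays were again all above the T arrays, with means of 77.1 ± 15.4 and 45.5 ± 5.29 (SD, n = 5 each). The scanner software's own error on these values was 10.5 to 14.5% of the signal. The local background was 35 to 46 units, and the median brightness of the spot before subtraction was 2.64 to 4.65 times this background. The software's signal was lower on every array than the spot median minus this local background. In C replicate 1 a spot median of 124 and a local background of 37 went with a signal of 56.5. In T replicate 3 the values were 103, 39 and 37.0. These multiples therefore overstate how far the spot stood above the amount taken away. Before subtraction the groups met, since C replicate 1 and T replicate 5 both had a spot median of 124 units. These units are not scaled for the brightness of the whole array. The 75th percentile of the signal was 1525 units in C replicate 1 and 2476 in T replicate 5.

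**Figure D2:**
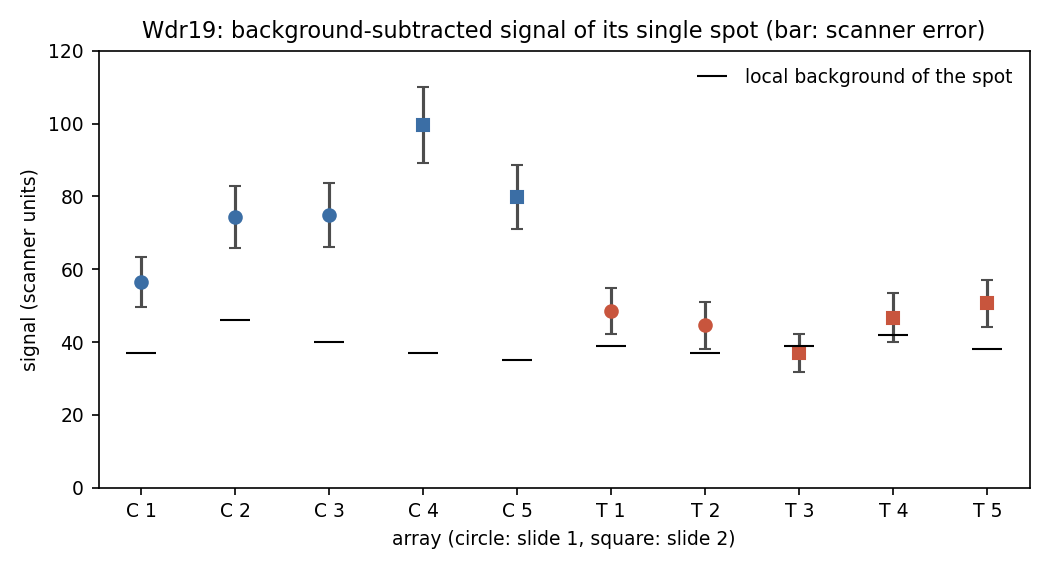
Background-subtracted signal of the Wdr19 spot on each array, in scanner units before scaling between arrays. Bars are the scanner software's error estimate and black dashes the local background of the spot, circles are slide 1 and squares slide 2. The C arrays lie between 56.5 and 99.6 units and the T arrays between 37.0 and 50.7, after subtraction. The local background was 35 to 46, and the spot before subtraction was 2.64 to 4.65 times this background. The plotted signal was lower on every array than the spot median minus this background, so the dashes do not mark all that was taken away.

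The size of the Wdr19 difference moved when background correction, spot signal and scaling were changed together, and it differed between the slides taken alone. The SD of Wdr19 within the groups was 0.28 log2 units, against a median of 0.16 over all tested probes and 0.25 over the 1072 probes whose mean lay within 0.25 of its own. The normexp settings replaced the scanner's subtraction, and also used the median spot signal and quantile scaling. With them the difference was -0.39 at an offset of 50 and -0.61 at an offset of 1. The offset is a constant added to every signal before the log is taken, which draws the log2 differences of dim spots towards 0. The background-subtracted Wdr19 signal was itself only 37.0 to 99.6 units. Quantile scaling without normexp gave -0.795. On slide 1 alone, with 3 C and 2 T arrays, it was -0.46, and on slide 2 alone, with 2 C and 3 T arrays, it was -1.12. Wdr19 was lower in T under all 28 settings, the reported one included. This count is not support, since the groups did not overlap and fits on part of the arrays could only give this sign. Settings such as the filter on dim probes could not alter its value and left it at -0.787. Leaving out 1 array at a time gave -0.87 to -0.65. With the slide as a fixed term, or as a random block, it was -0.788, close to the value without it. Whether the difference itself varies between the slides, and the part that low signal has in it, was not tested.

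The other retrograde genes with a probe had differences near 0. Wdr35, a partner of Wdr19 in IFT-A, was read by 2 probes. The brighter one stood at -2.03, -1.92, -1.95, -2.00 and -2.27 in C and at -1.89, -1.72, -2.14, -2.25 and -2.25 in T. The T arrays of slide 1 were the highest, C replicate 5 was the lowest, and the groups overlapped. Its means were -2.03 ± 0.14 and -2.05 ± 0.24 (SD, n = 5 each), with a T minus C difference of -0.018 ± 0.12 (SE; 95% interval -0.28 to 0.24). The dimmer probe gave 0.059 ± 0.082 (SE; 95% interval -0.12 to 0.24), with C arrays from -3.28 to -2.88 and T arrays from -3.09 to -2.90.

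Ttc21b, which sits at the outside of the IFT-A complex, was measured at -3.50, -3.83, -3.55, -3.89 and -3.88 in C. In T it was measured at -3.79, -3.56, -3.70, -3.84 and -3.82, within the range of the C arrays. The means were -3.73 ± 0.19 and -3.74 ± 0.11 (SD, n = 5 each), and the difference was -0.014 ± 0.096 (SE; 95% interval -0.23 to 0.20). Its background-subtracted signal was 132 to 230 scanner units, and the spot was 5.89 to 8.30 times the local background before subtraction. As for Wdr19, the signal was lower on every array than the spot median minus the local background.

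The anterograde set had no gene with separated groups. Ift88, a core IFT-B subunit, stood at -2.00, -2.05, -2.07, -1.89 and -1.90 in C and at -2.19, -2.05, -2.10, -1.98 and -1.82 in T. The T arrays spanned the whole range of the C arrays, and the difference was -0.044 ± 0.078 (SE; 95% interval -0.22 to 0.13). Ift80, a peripheral IFT-B subunit, ranged from -2.43 to -2.10 in C and from -2.28 to -2.08 in T, with a difference of 0.048 ± 0.076 (SE; 95% interval -0.12 to 0.22).

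Ift172, a peripheral IFT-B subunit needed for the turnaround of trains at the ciliary tip, was measured by 10 spots per array. It stood at -0.27, -0.17, -0.32, -0.12 and -0.19 in C and at -0.21, -0.20, -0.15, -0.26 and -0.28 in T. All T arrays fell within the range of the C arrays, and the difference of -0.0086 ± 0.058 (SE; 95% interval -0.14 to 0.12) had the smallest error of the members. The SD between its spots on an array was 0.031 to 0.072 log2 units (median 0.047), and the SD between arrays within the groups was 0.067.

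Ift57, a peripheral IFT-B subunit that binds Ift20, had the next largest difference after Wdr19. It stood at -0.27, -0.13, -0.14, -0.04 and -0.17 in C and at -0.18, -0.20, -0.32, -0.31 and -0.32 in T. The 3 lowest values were the T arrays of slide 2, and C replicate 1 lay among the T arrays. The means were -0.15 ± 0.082 and -0.27 ± 0.069 (SD, n = 5 each), and the difference was -0.11 ± 0.061 (SE; 95% interval -0.25 to 0.021), which includes 0.

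Kif3a, a motor subunit of kinesin-2, also had 10 spots per array. It stood at -1.45, -1.38, -1.43, -1.14 and -1.34 in C and at -1.16, -1.26, -1.36, -1.33 and -1.35 in T. C replicate 4 was the highest and C replicate 1 the lowest, so the T arrays lay within the C range. The difference was 0.058 ± 0.074 (SE; 95% interval -0.11 to 0.22). Of 300 spot measurements of the members, the 9 set missing for an outlier flag were all Kif3a spots.

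**Figure D3:**
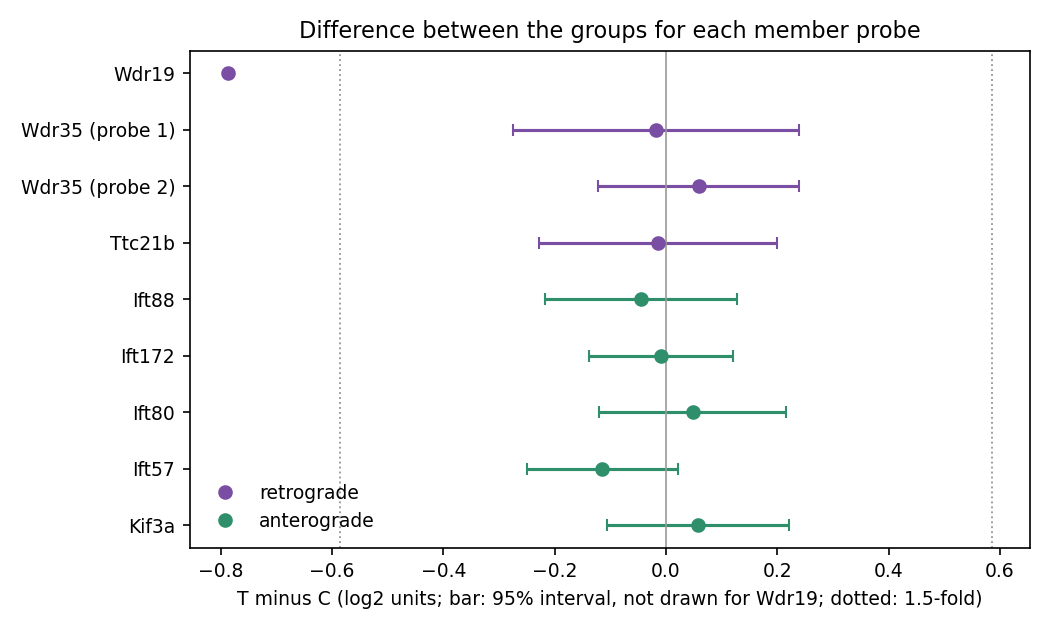
Difference T minus C of each member probe in log2 units. Bars are 95% intervals of the limma fit, not drawn for Wdr19, which was selected on this difference, and dotted lines mark a 1.5-fold change. Wdr19 lies at -0.79, and the intervals of the other 7 genes include 0 and lie inside 1.5-fold.

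Set against each other, the retrograde and anterograde genes differed in Wdr19 alone by more than 0.115 log2 units between the groups. The 3 retrograde genes had a median T minus C difference of -0.018 (range -0.79 to -0.014; 0 higher and 3 lower in T), or -0.016 without Wdr19. The 5 anterograde genes had a median of -0.0086 (range -0.11 to 0.058; 2 higher and 3 lower). Over all 11561 genes the median was -0.0089, with 46.1% higher and 53.9% lower in T and 47 (0.407%) past 1.5-fold. Both medians therefore lay close to that of all genes. The interval of every gene other than Wdr19 fell inside 1.5-fold in either direction, which bounds the difference but does not show that the groups were equal.

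Across the 28 settings the other members had small differences, and the sign of 5 of them changed. Ift57 and Ift88 were lower in T in 28 of 28, at -0.21 to -0.0094 and -0.17 to -0.0014. Kif3a ran from -0.11 to 0.21, Ift80 from -0.076 to 0.090, Ift172 from -0.079 to 0.046, Ttc21b from -0.059 to 0.18 and Wdr35 from -0.10 to 0.16. Kif3a was 0.21 on slide 1 alone and -0.11 on slide 2 alone, and Wdr35 was 0.16 and -0.082. Ift57 was -0.0094 on slide 1 and -0.21 on slide 2, so that its difference, like that of Wdr19, was larger on slide 2. Whether the slides differ in these group differences was not tested.

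**Figure D4:**
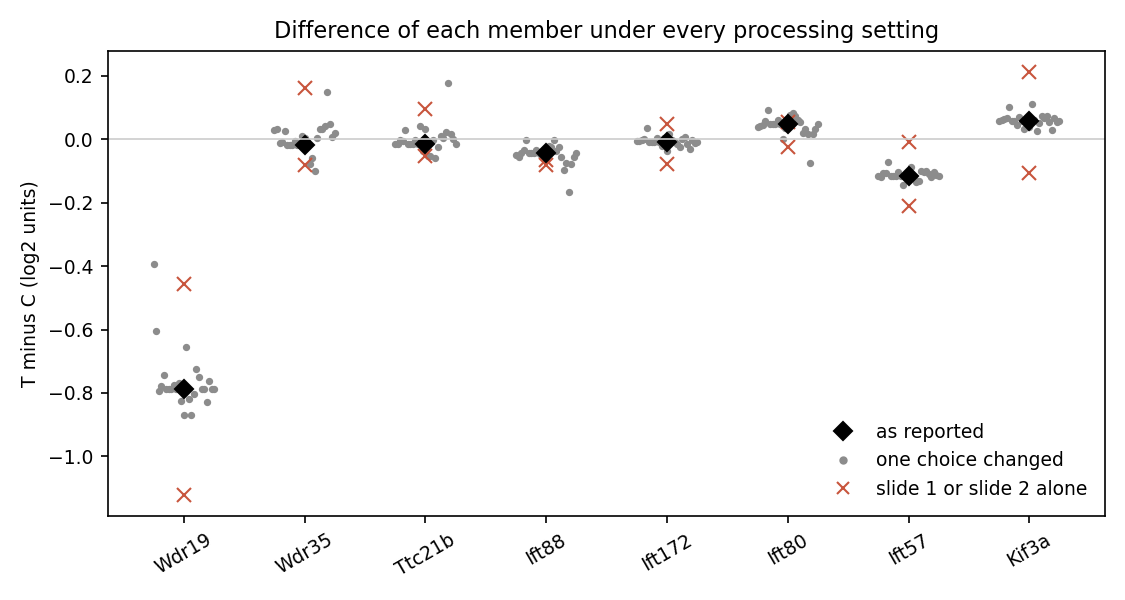
Difference T minus C of each member in log2 units under every processing setting. Black diamonds are the values as reported, and red crosses use the arrays of 1 slide. Grey points change 1 choice, except that the normexp settings change background correction, spot signal and scaling together. Wdr19 lies between -1.12 and -0.39 and below the points of every other member, which stay between -0.21 and 0.21.

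The arrays were scanned on 2 slides with 5 arrays each, and the slide is a contrast on which the members were not chosen. With the group as a term in limma, 2143 of 21892 probes (9.79%) differed between the slides after Benjamini-Hochberg adjustment. Among the 9 member probes 1 passed, which is near the share over all probes and so not particular to the members. The brighter Wdr35 probe was lower on slide 2, with slide means of -1.90 and -2.18 and a slide 2 minus slide 1 difference of -0.29 ± 0.080 (SE; adjusted p = 0.0493 in limma). The arrays of the slides overlapped slightly, since C replicate 1 on slide 1 was at -2.03 and C replicate 4 on slide 2 at -2.00. The dimmer Wdr35 probe had the same sign at -0.13 ± 0.074 and an adjusted p of 0.33 in limma. In the normexp settings, which also changed the spot signal and scaling, the call passed from the brighter to the dimmer probe. The dimmer one was then at -0.19 (offset 50, adjusted p = 0.0329 in limma) and -0.22 (offset 1, adjusted p = 0.0334), and the brighter one at -0.12 (adjusted p = 0.289) and -0.13 (adjusted p = 0.307). Over 21 settings the dimmer probe passed in 2 and was negative in 20, turning to 0.027 without scaling between arrays.

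The Wdr35 slide difference sat at its threshold. It passed in 6 of 21 settings, with values from -0.37 to -0.12 and adjusted p from 0.0094 to 0.756 in limma, and was negative in all 21. It held without C replicate 1 or C replicate 4, and was lost without any of the other 8 arrays (adjusted p = 0.0579 to 0.161 in limma), which are C replicates 2, 3 and 5 and T replicates 1 to 5. Without scaling between arrays it was -0.13, where the median slide difference of all probes was 0.13 in place of -0.028. The slide differences of Ift80 (0.16 ± 0.059, adjusted p = 0.123 in limma), Ttc21b (-0.18 ± 0.082, adjusted p = 0.205) and Ift88 (0.15 ± 0.065, adjusted p = 0.191) did not pass as reported. Ift80 passed in 2 of 21 settings, at 0.21 with normexp at an offset of 50 (adjusted p = 0.0352 in limma) and at 0.24 with an offset of 1 (adjusted p = 0.0427), and was positive in all 21. That of Wdr19 was 0.0057 ± 0.17, with an adjusted p of 0.988 in limma.

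The rest of the ciliary machinery gave no probe past the threshold in T minus C, where 0 of all 21892 probes (0%) passed. Of the other IFT subunits, 12 of 14 were tested, 7 higher and 5 lower in T, with a median of 0.013 and none beyond 0.097. Ift74, an IFT-B core subunit that binds tubulin, had a difference of 0.097 ± 0.078 (SE), and Ift43, a small IFT-A subunit, one of 0.073 ± 0.086. Ciliary motors and their accessory chains had 7 of 11 tested, 3 higher and 4 lower, with a median of -0.016. Among them the dynein light chain Dynll1 was at -0.16 ± 0.077 (its other probe at -0.13), and Dynlt2b, a light chain of dynein-2, at 0.064 ± 0.060.

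The BBSome, which carries membrane proteins on IFT trains, and its adaptors had 10 of 14 genes tested, 7 higher and 3 lower, with a median of 0.041. Mkks, a chaperonin-like protein of BBSome assembly, was at -0.25 ± 0.17 and the subunit Bbs2 at 0.079 ± 0.060. The transition zone and basal body list, the gate at the ciliary base, had 15 of 26 tested, 10 higher and 5 lower, with a median of 0.039. Iqcb1 was at 0.19 ± 0.080 (its other probe at 0.20) and Mks1 at -0.11 ± 0.056. Ahi1, named here after its values were seen because it lay farthest from 0 among these lists, was at -0.41 ± 0.25.

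Hedgehog pathway genes that are read through the cilium had 9 of 14 tested, 3 higher and 6 lower, with a median of -0.0098. Smo, the membrane transducer of the pathway, was at -0.19 ± 0.10 and Ptch1, the hedgehog receptor and a target gene, at -0.092 ± 0.10. Factors of the ciliary gene programme had 5 of 11 tested, 0 higher and 5 lower, with a median of -0.071 and a range of -0.082 to -0.0050. Rfx1 was at -0.082 ± 0.090, and Rfx7 at -0.071 ± 0.060 with its other probe at 0.28. None of the 6 lists had a gene past an adjusted p of 0.05 in limma, and neither did the whole array. At an unadjusted p under 0.05 only Iqcb1 passed among them, against 228 higher and 236 lower of all 11561 genes.

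**Figure D5:**
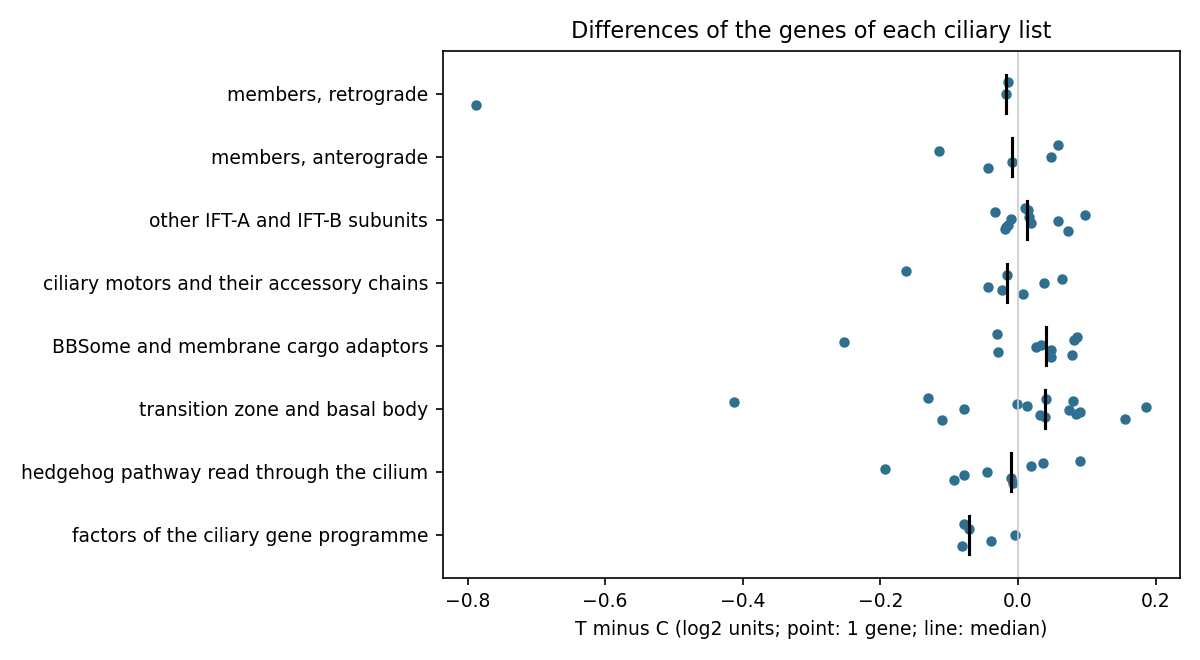
Difference T minus C of the genes of each ciliary list in log2 units, 1 point per gene with the gene's brightest probe, and a black line at the median. Wdr19 stands at -0.79, and among the other lists Ahi1 at -0.41 lies farthest from 0.

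With the difference between the groups included, the 5 genes most like Wdr19 over the 10 arrays were not members. Among the brightest probes of 11556 genes, the highest Pearson correlation with Wdr19 was that of Tbc1d20, a GTPase-activating protein for Rab1, at r = 0.931 (Spearman's rho 0.964), followed by Pou3f3 (r = 0.8997), Nr2c1 (r = 0.878), Ten1 (r = 0.878) and Ywhab (r = 0.873). These values describe 10 shared arrays, include the difference on which Wdr19 was selected and have no test. By this measure Ift57 was the most alike member at r = 0.776 and rank 76, while Ift172 (r = 0.291, rank 3601), Ift88, Wdr35, Kif3a, Ttc21b and Ift80 (r = -0.214, rank 9001) ranked lower. The order of the members turned when the group means were subtracted. Kif3a then had r = 0.850, above Ift57 at 0.564, Ift172 at 0.428 and the other members. It was also above Tbc1d20 (0.823), Pou3f3 (0.810), Ten1 (0.772), Nr2c1 (0.599) and Ywhab (0.548). Those 5 genes were picked with the group difference included, and Kif3a was not ranked among all genes by this measure. C replicate 4 and T replicate 1 were the highest of their groups for both Wdr19 and Kif3a. The nearest tested genes on the chromosome, 3 on each side of Wdr19 in the gene table, had differences of -0.16 to 0.088, among them Rfc1 at 0.015 ± 0.054 and Klhl5 at 0.032 ± 0.076.

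Testis samples hold many cell types, and in bulk RNA fewer cells of a type and less RNA per cell cannot be told apart. Markers of germ cells (gonocytes and spermatogonia) were higher in T for 9 of 10 tested genes, with a median of 0.18, and their mean level relative to all arrays ran from -0.11 to 0.020 in C and from -0.062 to 0.27 in T. Sertoli cell markers were lower in T for 8 of 11 genes, with a median of -0.046, running from -0.010 to 0.12 in C and from -0.18 to 0.067 in T. Genes of motile cilia and ducts were higher for 12 of 14 genes, with a median of 0.076 and ranges of -0.18 to 0.14 in C and -0.0057 to 0.13 in T. These were 14 of the 25 genes of that list. Dnai1, Drc1, Spag16 and Spag6 were too dim to test, and Ccdc39, Cfap44, Dnah5, Dnah9, Hydin, Rsph4a and Spag17 had no probe. The untested genes were thus all genes of motile cilia, while every duct and epithelial gene of the list was tested. Leydig cell markers were higher for 4 of 6 genes, with a median of 0.11 and ranges of -0.26 to 0.35 in C and -0.23 to 0.25 in T. Erythroid markers were higher for 3 of 3, with ranges of -0.64 to 0.22 and -0.011 to 0.28. Their median of 0.26 was the largest of the 9 marker lists. Endothelial markers were higher for 5 of 6 genes, with a median of 0.12 and ranges of -0.22 to 0.19 in C and -0.013 to 0.12 in T. Skeletal muscle markers were higher for 4 of 6, with a median of 0.20 and ranges of -0.14 to 0.062 and -0.12 to 0.22. Peritubular and stromal markers were higher for 3 of 8 (median -0.074) and macrophage markers for 3 of 7 (median -0.023). None of the 9 marker lists had a gene past an adjusted p of 0.05 in limma, and neither did the whole array. At an unadjusted p under 0.05, 3 of 10 germ cell, 2 of 6 endothelial and 1 of 6 skeletal muscle genes were higher in T, against 228 of all 11561 genes. The part of these cell types in the Wdr19 difference was not tested.

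Arrays were of like quality. The 75th percentile of each array's signal was 1525 to 2686 scanner units, 70.5 to 74.8% of probes were well above background, 0 spots were saturated, and values of any 2 arrays correlated at 0.990 to 0.997 over tested probes. The precision of every value here is limited by the number of arrays.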

How the data were processed

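RNA of testes was labelled with Cy3 and hybridised to 10 one-colour Agilent arrays, 5 C and 5 T. The deposited spot intensities came from Agilent Feature Extraction (10.7 per the submitters' processing notes), with background already subtracted and no scaling between arrays. The authors' deposited value table holds log2 values of 21220 probes centred per probe, which correlated at 0.998 to 0.999 with centred scanner values. Its column medians were 0.0291, 0.000252, -0.0167, 0.0203 and -0.00906 in C and 0.00327, 0.00382, -0.00273, -0.0171 and -0.00247 in T. Its scaling between arrays and probe filter stay unknown, and it served as an alternative.

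Of 62976 spots, 4259 controls were left out, and 494 to 745 spots per array with an outlier flag were set missing. The 75th percentile of each array's log2 signal was subtracted, and spots of a probe were averaged. Probes well above background on at least 5 of 10 arrays were tested (21892 of 30367, 72.1%). Transcript accessions were matched without version to the RefSeq gene table of GRCr8, which named 17998 probes. The gene's brightest probe stood for it in lists. The files hold no probe coordinates on that assembly, so none are given. Differences were fitted with limma 3.58.1 (lmFit, eBayes, two-sided) in R 4.3.3 with Benjamini-Hochberg adjustment and a threshold of 0.05, and the code was tested on simulated data.

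Named genes were all members, at most 2 per ciliary list by smallest p, the 5 genes most correlated with Wdr19 and 3 neighbours on each side. Members and lists were chosen with earlier results of these data known. Alternatives covered background correction, scaling, filters, slides, single arrays and blocks. The leading numbers 2, 4 and 6 of the sire codes occur in both groups, and no label says that they mark shared litters or batches.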

Additional observations from a re-analysis of the deposited data

How the results depend on the processing

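For T minus C, 0 probes passed under every alternative run. Wdr19 stayed lower in T, a sign that leaving out arrays could not change because its groups did not overlap. Its difference of -0.787 moved by more than the spread between arrays to -0.393 with normexp (offset 50), to -0.456 on slide 1 alone and to -1.12 on slide 2 alone, and ranged from -0.87 to -0.654 when 1 array was left out. The retrograde and anterograde medians moved by less than that spread, within -0.101 to 0.148 and -0.0786 to 0.0464, and both changed sign. The 2143 probes that differed between slides became 425 without scaling, and 1277 to 2753 when 1 array was left out (1277 without C replicate 5, 1334 without T replicate 1 and 1410 without T replicate 2). The causes were not tested. Arrays with the same sire number (2, 4 and 6) had deviations correlated at -0.512, 0.282 and 0.194. Each lay below the highest correlation with another array (0.405, 0.332 and 0.229). A comparison with the highest of several values cannot decide whether these arrays share a litter or batch, and no label says so. With that number as a replicate block the Wdr19 difference was -0.827, the retrograde median 0.148, the anterograde median -0.0757, and 0 probes passed. The random block for the slide was chosen after seeing the data and gave 0 probes. Wdr19 rests on 1 dim spot per array, at 2.64 to 4.65 times the local background, which limits what the size of its difference can show. These multiples overstate how far the spot stood above the amount subtracted, which was more than the local background.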
